A study of Homo sapiens with 2 samples.

Results

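The genes of DNA replication and of entry into S phase were compared between SKOV3 cells with and without RUNX2 knockdown. SKOV3 is a human ovarian adenocarcinoma cell line. The clone cl-sh3 carried an shRNA against RUNX2, a transcription factor of the Runt family best known from bone formation, and the control (mock-transfected) clone carried a scramble sequence in the same pLKO.1-puro vector. Both were made by lentiviral infection and puromycin selection, and RNA of the cultured cells was labelled with Cy3 or Cy5 and mixed on 2-colour Agilent arrays of the whole human genome. In hybridization 1 the RNA of cl-sh3 carried Cy5 and that of the control clone Cy3, and in hybridization 2 the dyes were reversed. Each genotype was 1 clone. For the arrays cl-sh3 was taken because its proliferation, migration and invasion were inhibited more than those of another knockdown clone. Differences between clones and effects of the knockdown therefore cannot be told apart. The dye swap repeated the measurement of a single RNA pair on 1 slide, which makes 1 replicate. No test between the clones could be made, no p-value is given, and every value below is a log2 ratio of cl-sh3 over control, in which 0 means equal signal and a value above 0 a higher signal in cl-sh3.

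The set was a list of 58 human genes of the known machinery of replication, nucleotide synthesis and the G1/S transition. Probes were found through their RefSeq accessions. All 58 genes had a probe, 76 probes in all, and all 58 passed the detection filter, which kept 16149 of 17240 named genes. Where a gene had several probes, the brightest one stood for it. The RNA of both clones was well above the local background in both hybridizations for every member except POLE, whose control signal passed in 1 of them.

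Cells prepare to copy their DNA in G1, when the origin recognition complex, CDC6 and CDT1 load the MCM2 to MCM7 ring onto origins. Cyclin D with CDK4 and cyclin E with CDK2 phosphorylate the retinoblastoma protein, which releases E2F factors that transcribe much of this machinery, and the MCM ring, joined by CDC45 and GINS, then unwinds DNA ahead of the polymerases. The transcripts of many of these genes rise and fall with the cell cycle. The arrays measured RNA of whole cultures, so more cells in late G1 or S phase and more transcript per cell cannot be told apart. By flow cytometry of cl-sh3 and control cells synchronized with hydroxyurea, the paper found no significant effect of RUNX2 suppression on cell cycle control. It gave no phase shares for the cultures whose RNA was hybridized. The paper also reported a lower cell index and fewer colonies for SKOV3 cells with RUNX2 knockdown than for control cells.

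Binding sequences of E2F factors lie in the promoters of many of these genes, and the members' promoters are shown first. The list was not defined by these motifs, but the choice of such genes made a high share of matches likely. Promoters of 300 bases, 250 before the transcription start and 50 after it, came from RefSeq on GRCh38.p14, which held 50 of the 58 members. MCM4, MCM5, RPA2, RPA3, POLD3, CCND1, CDK2 and CCNE2 were not matched. For 11 members the table listed several starts, and the first listed one was used. The letters TTTCCCGC, TTTGGCGC, TTTCGCGC and TTTGCCGC were searched on both strands as E2F motifs. Below are the promoters of MCM2 (chr3:127598161-127598460, plus strand), MCM3 (chr6:52284693-52284992, minus strand), MCM6 (chr2:135876394-135876693, minus strand) and MCM7 (chr7:100101348-100101647, minus strand), subunits of the helicase ring that were higher in cl-sh3 and each held several matches. E2F3 (chr6:20401629-20401928, plus strand), a gene with a match that was lower, and RRM2 (chr2:10122489-10122788, plus strand), a gene without a match that was higher, are set beside them. Each is written 5′ to 3′ along the gene's strand, with E2F matches in capitals.
MCM2: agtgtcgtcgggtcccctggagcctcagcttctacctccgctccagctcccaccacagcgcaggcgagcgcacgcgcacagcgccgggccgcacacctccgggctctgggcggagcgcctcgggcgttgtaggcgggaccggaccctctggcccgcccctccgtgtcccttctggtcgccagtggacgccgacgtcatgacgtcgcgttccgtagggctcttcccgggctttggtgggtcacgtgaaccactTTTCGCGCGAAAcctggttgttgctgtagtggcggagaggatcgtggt
MCM3: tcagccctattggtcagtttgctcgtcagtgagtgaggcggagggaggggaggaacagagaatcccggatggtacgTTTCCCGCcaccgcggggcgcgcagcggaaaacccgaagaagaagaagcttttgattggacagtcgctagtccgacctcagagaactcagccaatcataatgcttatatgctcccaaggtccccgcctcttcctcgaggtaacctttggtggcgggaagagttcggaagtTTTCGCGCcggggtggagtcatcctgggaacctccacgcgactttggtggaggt
MCM6: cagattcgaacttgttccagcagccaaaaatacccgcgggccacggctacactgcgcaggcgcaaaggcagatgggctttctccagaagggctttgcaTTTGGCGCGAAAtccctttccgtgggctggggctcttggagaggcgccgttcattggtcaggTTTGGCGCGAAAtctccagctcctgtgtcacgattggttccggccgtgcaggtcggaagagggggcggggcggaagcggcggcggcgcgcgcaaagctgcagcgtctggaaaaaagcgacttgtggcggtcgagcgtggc
MCM7: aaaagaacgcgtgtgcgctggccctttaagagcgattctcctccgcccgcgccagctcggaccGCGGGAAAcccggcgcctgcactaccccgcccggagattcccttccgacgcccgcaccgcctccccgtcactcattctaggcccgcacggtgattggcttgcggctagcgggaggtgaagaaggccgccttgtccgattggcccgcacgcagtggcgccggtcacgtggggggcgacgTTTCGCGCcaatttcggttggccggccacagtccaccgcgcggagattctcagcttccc
E2F3: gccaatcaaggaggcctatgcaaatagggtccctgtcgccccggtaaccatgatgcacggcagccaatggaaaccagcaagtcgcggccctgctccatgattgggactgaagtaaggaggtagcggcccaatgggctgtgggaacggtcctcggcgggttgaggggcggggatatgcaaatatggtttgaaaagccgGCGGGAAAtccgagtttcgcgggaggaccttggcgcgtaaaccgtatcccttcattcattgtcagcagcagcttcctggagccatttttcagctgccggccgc
RRM2: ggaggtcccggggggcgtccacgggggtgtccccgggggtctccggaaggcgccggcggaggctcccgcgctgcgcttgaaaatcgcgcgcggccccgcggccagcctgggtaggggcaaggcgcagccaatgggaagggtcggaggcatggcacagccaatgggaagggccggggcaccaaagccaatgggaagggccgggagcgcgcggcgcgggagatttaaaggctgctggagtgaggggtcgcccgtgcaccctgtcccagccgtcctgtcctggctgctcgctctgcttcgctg

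In MCM2 and MCM6 the capitals run on because a match on one strand overlapped a match on the other, and MCM6 held that overlapping pair at 2 places. At least 1 E2F match stood in 24 of the 50 promoters, or 48.0%, against 4.87% of the 12848 promoters of genes kept on the array and 3.33% of all 27305 promoters. Of the 31 matches, counting each overlapping pair as 2, 23 began between 60 bases before and 10 bases after the start. No such share is given for other genes, so this position cannot be called particular to the members. The helicase genes held one in 7 of 9 promoters and the nucleotide supply genes in 1 of 6. A match says that these letters are present and not that a factor was bound.

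Other motifs were counted in the same way. The RUNX motif TGTGGT stood in 4 of the 50 promoters, or 8.0%, against 10.3% of kept genes, and these were MCM2, PRIM1, POLE and RFC2. CCAAT stood in 28, or 56.0%, against 36.5%. It also stood in 17 of 32 replication genes outside the set, or 53.1%, and in 16 of 22 mitosis genes, or 72.7%. CCAAT was therefore not particular to the members. TTTGAA, the letters of the CHR element known from genes of G2 and mitosis, stood in 2 of the members' promoters. This was 4.0%, against 11.2% of kept genes, whereas 14 of 22 mitosis genes held it, or 63.6%.

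Of the 58 members, 41 were higher in cl-sh3 in both hybridizations, 7 were lower in both and 10 had opposite signs. These shares were 70.7% and 12.1%, against 30.9% and 28.4% of all kept genes, of which 40.7% had opposite signs. The 7 lower members include CCND1, whose dimmer probes were above 0. The median of the members' mean ratios was 0.32, a 1.25-fold difference, against 0.01 over all genes. It was 0.24 in hybridization 1 and 0.34 in hybridization 2. Above the third quartile of all genes stood 40 members, and 6 stood below the first. The shift was broad and small, with member means from -0.41 to 0.89.

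Counts by sign alone include values close to 0, and for 12 members both ratios lay between -0.3 and 0.3. At least 1.5-fold higher in both hybridizations were 4 members, MCM2, MCM4, MCM5 and RPA3, where the share over all genes was 1.6%, and no member was at least 1.5-fold lower in both, where it was 2.6%. No member passed 2-fold in both hybridizations, which 0.136% of all genes did on the higher side and 0.514% on the lower side. Just short of the 1.5-fold limit (0.58 on the log2 scale) stood LIG1 with 0.57 in hybridization 1, while PCNA had 0.55 and 0.52.

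**Figure D1:**
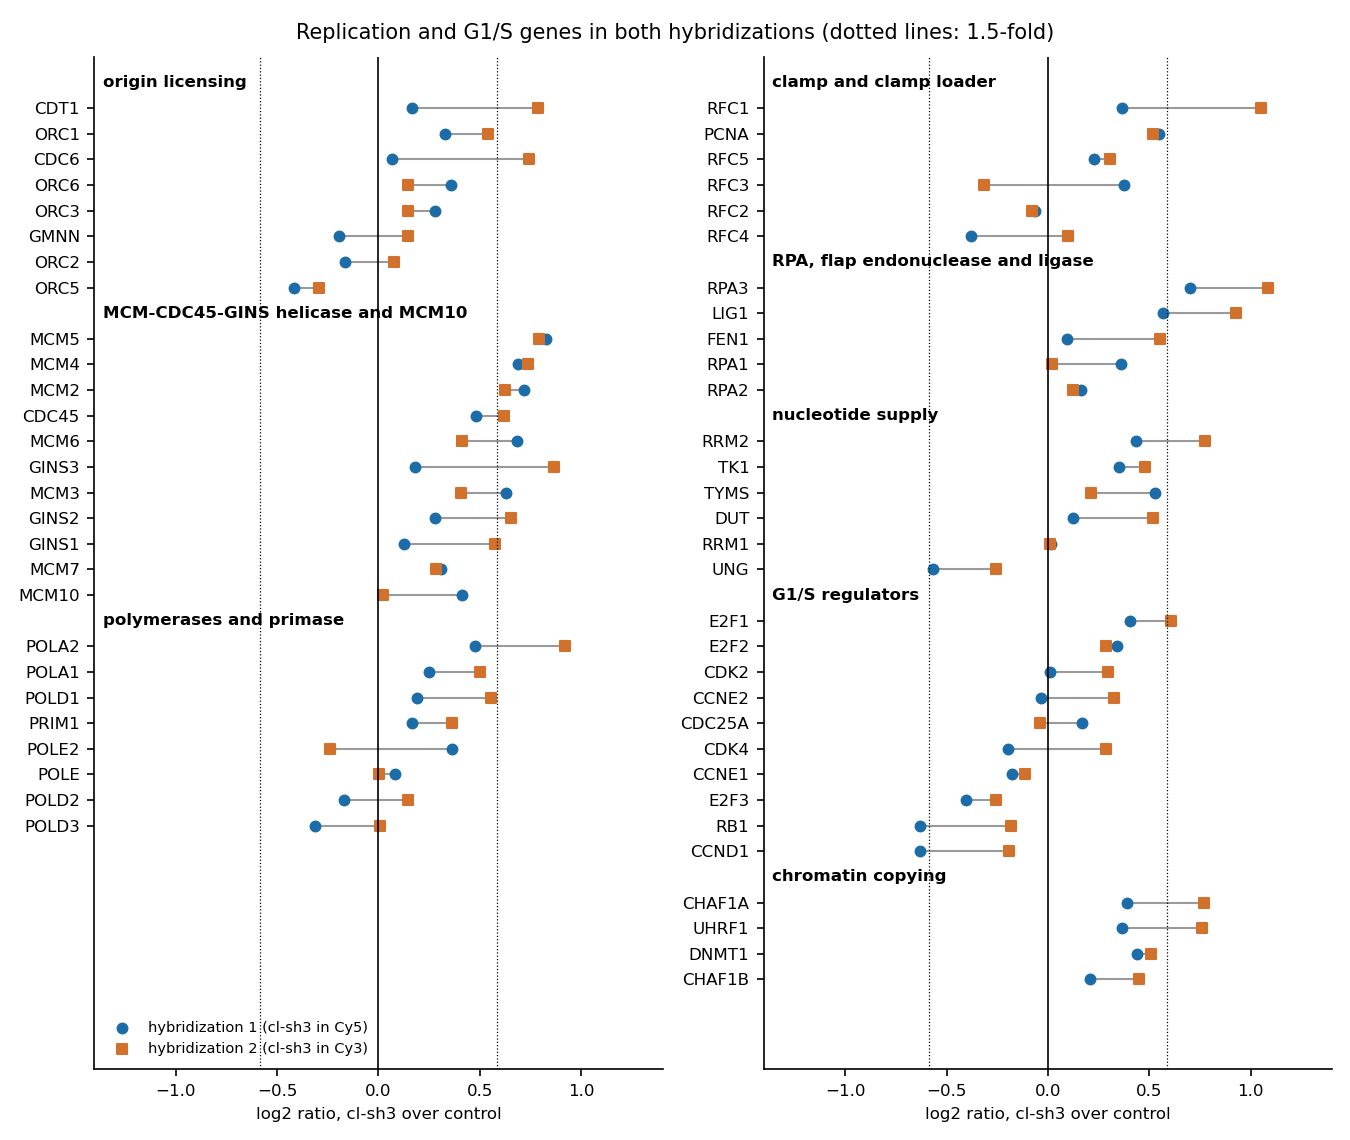
Log2 ratio of cl-sh3 over control for each of the 58 genes, by role, in hybridization 1 (circles) and hybridization 2 (squares), with a line joining the values of a gene and dotted lines at 1.5-fold. Each gene is drawn at its brightest probe. All 11 helicase genes lie to the right of 0 in both hybridizations, and 4 of the 10 G1/S regulators, CCND1 among them, lie to the left of 0 in both.

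The helicase genes were all higher in cl-sh3 and held most of the members past 1.5-fold. Each of the 11 stood above 0 in both hybridizations, with a median of 0.52, and 3 of the 4 members past 1.5-fold were among them. MCM5, a subunit of the ring that opens DNA, had 0.82 and 0.79, a mean difference of 1.75-fold. Its background-subtracted signal before dye normalization was 7956 in cl-sh3 and 2552 in control in hybridization 1, and 5636 and 3407 with the dyes reversed. Raw signals leaned to Cy5 in hybridization 1. RRM1, with a ratio near 0, had 25906 in cl-sh3 and 13647 in control there. For MCM5, cl-sh3 stood above control with either dye. The mean ratio of 0.923% of all genes was above that of MCM5.

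MCM4 had 0.69 and 0.74, and MCM2 had 0.72 and 0.62. MCM6 had 0.68 and 0.41, MCM3 had 0.63 and 0.41, and MCM7, whose gene also hosts a microRNA cluster, had 0.31 and 0.28. The hybridizations of MCM5, MCM4, MCM2 and MCM7 lay within 0.1 of each other, and MCM7 was the lowest of the ring in both. The median of the 6 ring subunits, whose genes lie on 6 chromosomes, was 0.61.

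The partners of the ring were also higher in both hybridizations. CDC45, which binds the ring to activate it, had 0.48 and 0.62. The hybridizations lay further apart for GINS. Its subunits GINS1, GINS2 and GINS3 had 0.13, 0.28 and 0.18 in hybridization 1 and 0.57, 0.66 and 0.87 in hybridization 2. MCM10, which helps to start unwinding, went the other way with 0.41 and 0.02, and its dimmer probe gave 0.12 and 0.67. A dimmer GINS3 probe gave 0.21 and -0.01, so the size of that gene's difference depended on the probe.

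Origin licensing genes were divided, with 5 of 8 higher in both, 1 lower in both and a median of 0.23. CDT1, which brings the ring to origins, had 0.16 and 0.79, with 0.41 and 1.19 at its other probe. CDC6, the loading ATPase, had 0.06 and 0.74. The ratios of hybridization 2 were far above those of hybridization 1 in both genes. GMNN, which encodes geminin, the inhibitor of CDT1, had -0.20 and 0.15.

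The subunits of the origin recognition complex did not share a direction. ORC1, the subunit regulated through the cell cycle, had 0.33 and 0.54, ORC6 had 0.36 and 0.15 but opposite signs at its dimmer probe (-0.24 and 0.68), and ORC3 had 0.28 and 0.15. ORC2 had -0.17 and 0.08. ORC5 had -0.42 and -0.30 at the probe for one transcript accession and -0.77 and -0.95 at a dimmer probe for another, which was the only member probe at least 1.5-fold lower in both hybridizations.

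Among the polymerases and primase, 5 of 8 genes were higher in both, none was lower in both and the median was 0.16. The subunits of DNA polymerase alpha in the set, which lays down the primers, were higher in both. A further subunit gene, PRIM2, was outside the set and had -0.02 and 0.52. POLA2 had 0.48 and 0.92, POLA1 had 0.25 and 0.50, and PRIM1, the primase subunit, had 0.17 and 0.36. The subunits of polymerase delta, which extends the lagging strand, were less alike. POLD1, its catalytic subunit, had 0.19 and 0.55, a mean like that of POLA1, POLD2 had -0.17 and 0.14, and POLD3 had -0.31 and 0.01. The dimmer POLD3 probe gave -0.50 and -0.52. Polymerase epsilon, which copies the leading strand, showed little, with 0.08 and 0.00 for POLE and 0.36 and -0.24 for POLE2.

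PCNA, the sliding clamp that holds polymerases on DNA, had 0.55 and 0.52. Its probe was printed 10 times on each array, and the spots used had an SD of 0.12 (8 spots) and 0.14 (10 spots), all of them above 0. The clamp loader was divided. RFC1, its large subunit, had 0.37 and 1.05, yet -0.01 and 0.22 at a dimmer probe. RFC5 had 0.23 and 0.31, RFC2 had -0.07 and -0.08, and RFC3 and RFC4 had opposite signs, with 0.37 and -0.32 for RFC3 and -0.38 and 0.10 for RFC4. A dimmer RFC3 probe for another transcript gave 0.09 and 0.30. The group's median was 0.15, with 3 of 6 genes higher in both and 1 lower.

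All 5 genes of single-stranded DNA binding and lagging strand maturation were higher in both hybridizations, with a median of 0.32. RPA3, the small subunit of replication protein A, had the largest mean of the set, with 0.70 and 1.09, a mean difference of 1.86-fold. The other subunits were nearer 0, with 0.36 and 0.02 for RPA1 and 0.16 and 0.12 for RPA2. LIG1, the ligase that seals Okazaki fragments, had 0.57 and 0.93, or 1.68-fold on average. FEN1, which trims their flaps, had 0.09 and 0.55 at its brightest probe and 0.06 and 0.61 at the other.

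Of the 6 nucleotide supply genes, 5 were higher in both hybridizations and 1 was lower, with a median of 0.35. RRM2, the subunit of ribonucleotide reductase that is made in S phase, had 0.43 and 0.77 at its brightest probe and 0.43 and 0.20 at the other, while RRM1, its partner, had 0.02 and 0.01. The mean of RRM1 was the closest to 0 in the set. Thymidine kinase TK1 had 0.35 and 0.48, thymidylate synthase TYMS had 0.53 and 0.21, and the dUTPase gene DUT had 0.13 and 0.52. UNG, which removes uracil from DNA, was lower with -0.57 and -0.25.

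The 4 genes of chromatin copying were all higher, with a median of 0.52. DNMT1, the maintenance DNA methyltransferase, had 0.44 and 0.51. UHRF1, which recruits it to hemimethylated DNA, had 0.37 and 0.76 at its brightest probe, where the mean of its dimmer probe was 0.09. CHAF1A and CHAF1B, subunits of the histone chaperone that deposits new nucleosomes behind the fork, had 0.39 and 0.77, and 0.21 and 0.45.

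The regulators of the G1/S transition did not share the direction of the machinery. Of these 10 genes 3 were higher in both hybridizations, 4 were lower in both and 3 had opposite signs, and the median of 0.05 was -0.11 in hybridization 1 and 0.12 in hybridization 2. The 4 lower genes include CCND1, counted by its brightest probe although its other probes were above 0. The 48 members outside this group had a median of 0.36, with 38 higher in both and 3 lower. E2F1, an activating E2F factor and itself an E2F target, had 0.41 and 0.60, with spot SDs of 0.06 (7 spots) and 0.07 (10 spots). E2F2 had 0.34 and 0.28. E2F3, the remaining activator, was lower with -0.41 and -0.26.

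RB1, which encodes the retinoblastoma protein that holds E2F factors in check, had -0.63 and -0.18. The spots used, 10 and 9, were all below 0, from -0.79 to -0.40 in hybridization 1 and from -0.41 to -0.05 in hybridization 2. A dimmer RB1 probe gave -0.02 and -0.38, with the order of the hybridizations reversed. At the brighter probe the gap between the hybridizations was larger than the spot SDs of 0.13 and 0.12. CCND1, the gene of cyclin D1, had -0.63 and -0.19 at its probe printed 10 times. The means rest on 9 spots in hybridization 1 and 10 in hybridization 2, where 1 spot was above 0. Single spots of other CCND1 probes gave 0.90 and 0.08, and 0.08 and 0.16, so no direction could be given for CCND1, the only one of 17 genes with several probes whose probe means differed in sign.

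The cyclin-dependent kinases and their other cyclins had small ratios or opposite signs. CDK4 had -0.20 and 0.28, and CDK2, the partner of cyclin E, had 0.01 and 0.29. CCNE1 had -0.18 and -0.11 and CCNE2 had -0.04 and 0.33. CDC25A, the phosphatase that activates CDK2, had 0.17 and -0.04, but 0.19 and 0.50 at a dimmer probe.

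**Figure D2:**
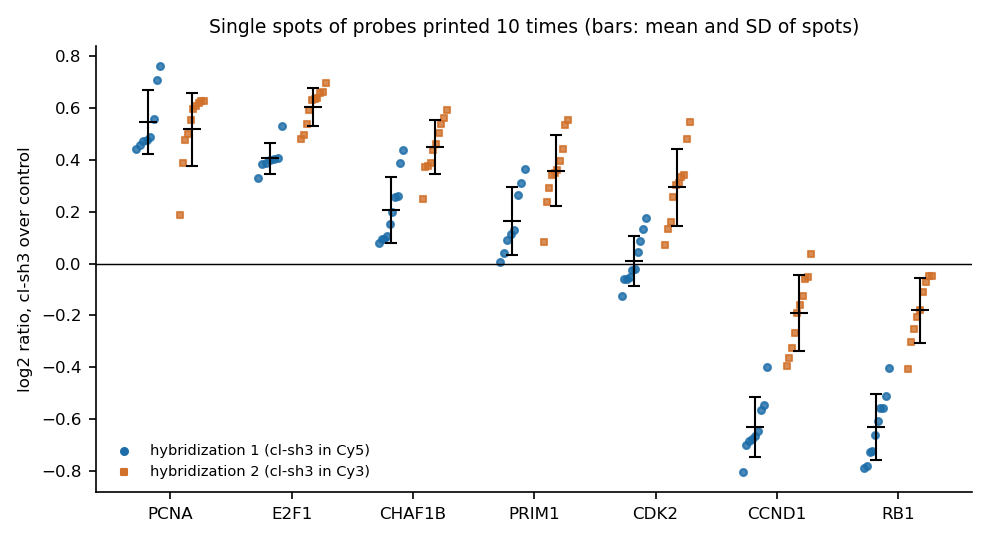
Log2 ratio of cl-sh3 over control for single spots of the 7 member probes printed 10 times on the array, in hybridization 1 (circles) and hybridization 2 (squares), with black bars for the mean and SD of the spots. All used spots of PCNA, E2F1, CHAF1B and PRIM1 lie above 0 in both hybridizations, and all used spots of RB1 lie below 0.

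The repeated spots gave the error of a ratio within an array, with a median SD of 0.12 per hybridization over the 264 probes printed 10 times. The difference between hybridizations was larger, with a median of 0.30 over the members and 0.23 over all genes, and its largest value among the members was 0.69. The mean ratio exceeded this difference for 36 members, 31 of them above 0 and 5 below, against 19.9% of all genes above and 19.3% below. The 36 include RRM1 and RFC2, whose means of 0.01 and -0.07 were close to 0 but whose hybridizations nearly coincided. Hybridization 2 gave the higher ratio for 39 members, or 67.2%, against 56.2% of all genes. The part of the dyes in this was not tested. Across the 58 members Pearson's r between the hybridizations was 0.63, and across all genes it was 0.58. These points share 2 arrays and 1 RNA pair, and genes are not independent replicates.

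**Figure D3:**
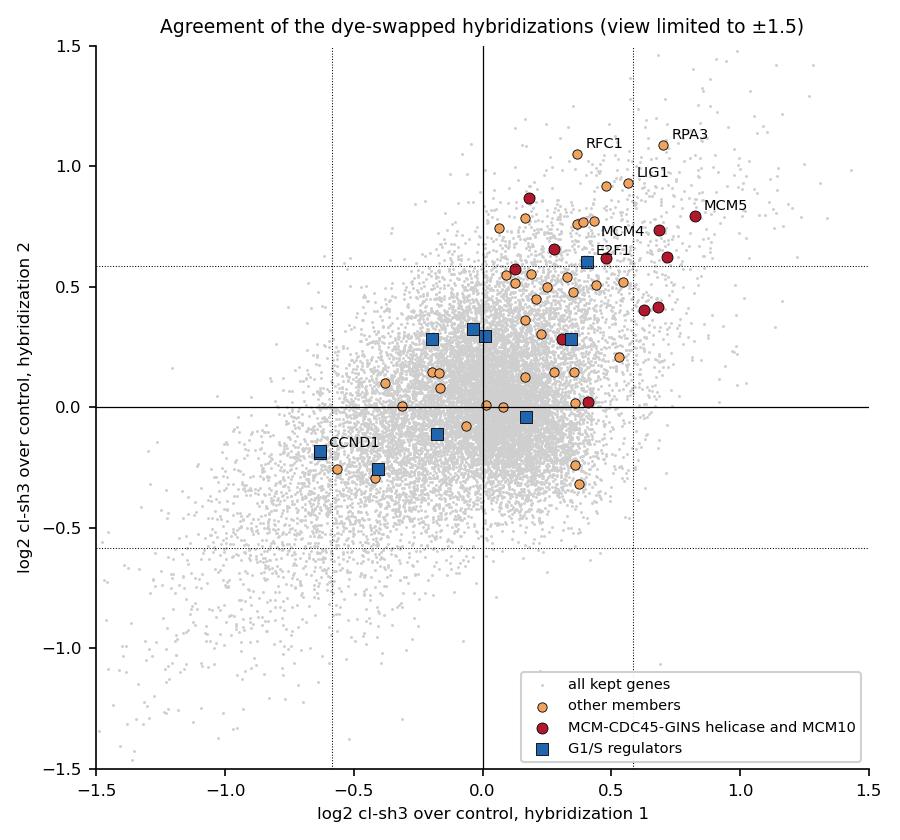
Log2 ratio of cl-sh3 over control in hybridization 1 (x axis) against hybridization 2 (y axis) for all kept genes (grey) and the 58 members (coloured by role), with dotted lines at 1.5-fold. Genes with ratios beyond the axes are not drawn. In the upper right corner beyond both dotted lines lie MCM2, MCM4, MCM5 and RPA3, and no member lies beyond both in the lower left.

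Members were brighter on the array than other genes, with a median log2 intensity of 11.9 against 10.1, so they were also compared within 4 bins of brightness with equal numbers of genes. In the brightest bin 30 members had a median ratio of 0.35 where all genes had -0.01, and 23 of them were higher in both hybridizations against 33.3% of all genes. In the next bin 18 members had 0.29 where all genes had 0.01. The dimmer bins held 5 members each, with medians of 0.06 and 0.15 where all genes had 0.02. MCM2, MCM5 and RPA3 stood in the brightest bin, where 3.44% of all genes were at least 1.5-fold higher in both hybridizations. The share of 1.6% over genes of every brightness was lower than that. MCM4 stood in the bin below the brightest, where the share was 1.41%.

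Genes of the same pathways outside the set had medians nearer 0 or below it. Of 40 further replication genes 39 were measured, with a median of 0.15, 19 higher in both hybridizations and 11 lower in both. TOP1, the topoisomerase that relaxes DNA, was the only one at least 1.5-fold lower in both, with -0.62 and -0.60, and none was 1.5-fold higher. Of 24 further G1/S regulators 23 were measured, with a median of -0.12, 6 higher and 11 lower. MYBL2, an E2F target that acts in S and G2, had 0.60 and 0.83 and was the only one past 1.5-fold. CDKN1B, the gene of the CDK2 inhibitor p27, had -0.54 and -0.61, and E2F5, a repressive E2F factor, had -0.56 and -0.65. Both were named after their values were seen, as the regulators nearest to the limit on the lower side. Of the further replication genes, RNASEH2B stood nearer to that limit, with -0.571 and -0.855, and was also named after its values were seen.

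Of 28 mitosis genes 27 were measured. Their median was 0.07, which was -0.07 in hybridization 1 and 0.16 in hybridization 2, with 10 higher in both, 8 lower in both and none past 1.5-fold. Set side by side, the medians of mean ratios were 0.61 for the MCM ring, 0.32 for the 58 members, 0.15 for the further replication genes and 0.07 for the mitosis genes. Epithelial and ovarian carcinoma markers, taken up below, had 0.34, so a shift of the members' size was not particular to replication genes. The differences between the lists were not tested.

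**Figure D4:**
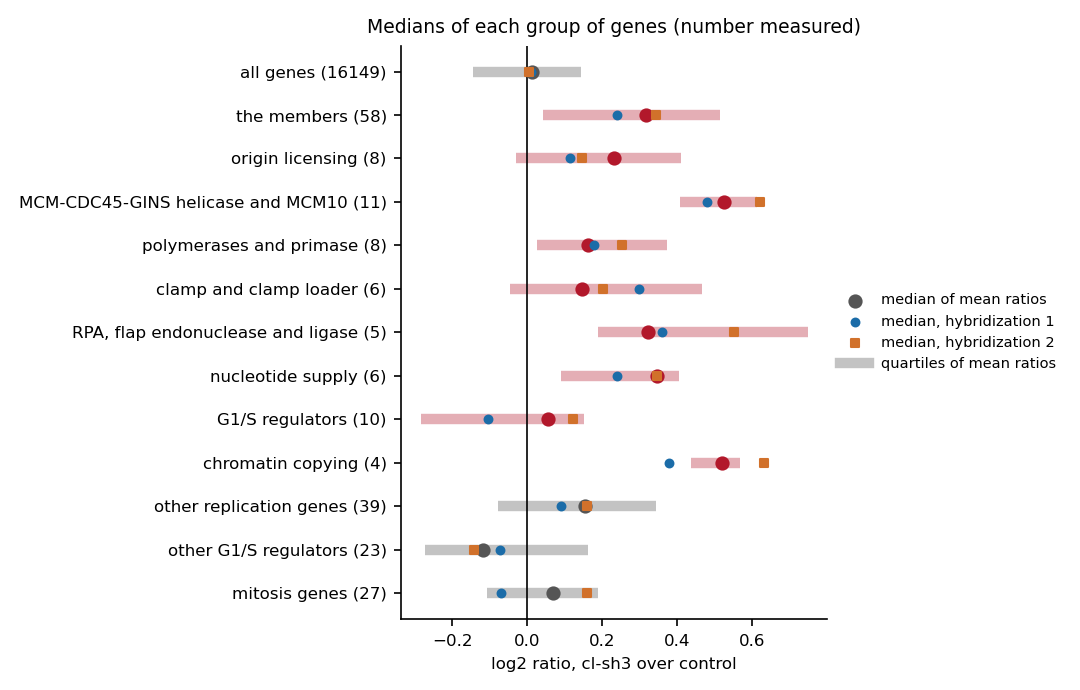
Median log2 ratio of cl-sh3 over control in each group of genes (large points), with the quartiles of the genes' mean ratios (bars) and the median in hybridization 1 (small circles) and hybridization 2 (small squares). Numbers in brackets are genes measured. The helicase and chromatin copying genes have the highest medians, 0.52 each, and all genes together lie at 0.01.

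The E2F motif and the ratios were also set side by side. The 24 members with a match had a median ratio of 0.43, with 20 higher in both hybridizations and 1 lower, and the 26 members without a match had 0.23, with 16 higher and 5 lower. Among all kept genes the 626 with a match had a median of 0.02, with 32.9% higher in both, and the 12222 without had 0.01, with 30.7%. None of these differences was tested. RFC1, RRM2, CHAF1A and CDC45 were higher without a match in the window. ORC5, CCNE1 and RFC2, lower in both hybridizations, held none either, and E2F3 was lower with 1. These counts depended on the start used. Over any listed start, an alternative added after the values were seen, UNG, DUT and GMNN held a match too. The 27 members with a match then had a median of 0.38 and the 23 without 0.25, and the shares with a match were 54.0% of members and 5.95% of kept genes. The RB1 window began 173 kb inside the gene and says nothing of its main promoter. Without RB1 the share of members with a match was 49.0% and the median of those without one 0.25.

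**Figure D5:**
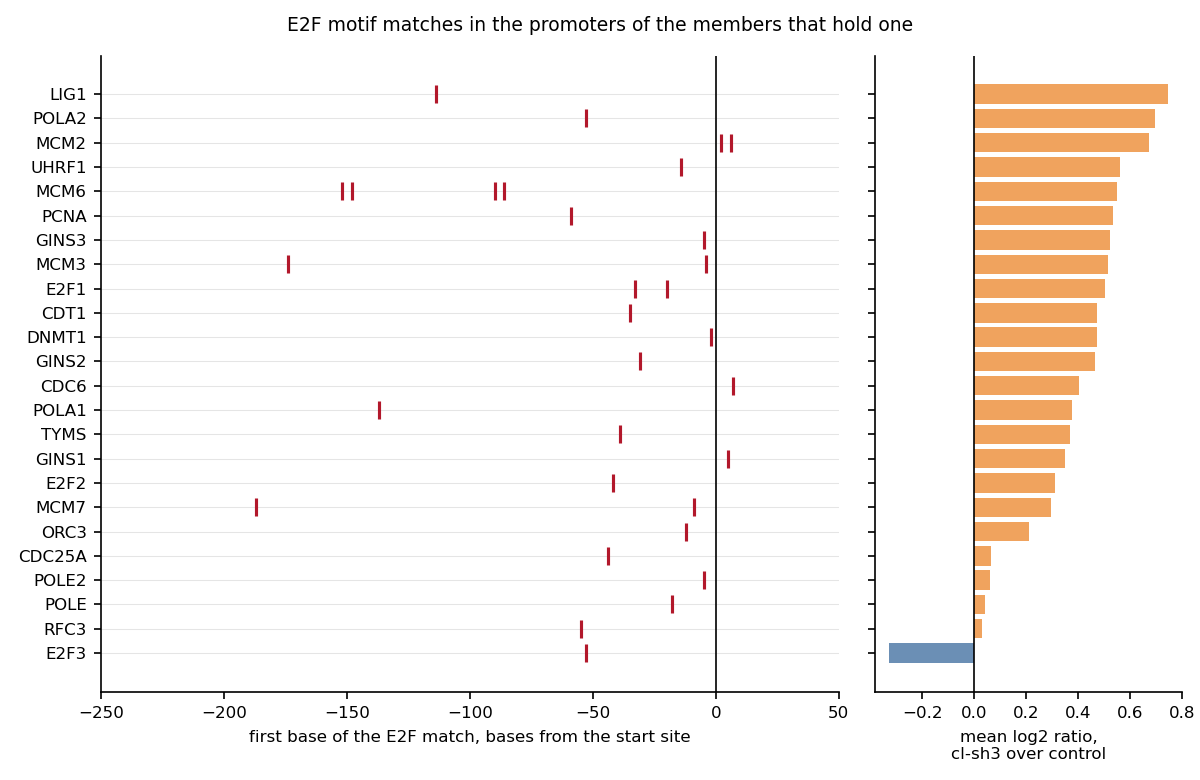
Left, first base of each E2F motif match, in bases from the transcription start (0), in the promoters of the 24 members that held one. Right, the gene's mean log2 ratio of cl-sh3 over control. Genes are ordered by that ratio, LIG1 is highest at 0.75, and E2F3 at -0.33 is the only gene below 0.

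The knockdown and the cell identity were checked on the same arrays. The brightest RUNX2 probe had -2.04 and -1.30, or 3.18-fold lower in cl-sh3 on average, while the remaining RUNX2 probes, both dimmer, gave 0.17 and -0.13, and -0.29 and -0.17. All 11 epithelial and ovarian carcinoma markers passed the detection filter, with a median of 0.34, 8 higher in both hybridizations and 1 lower. So did 5 of 7 fibroblast markers, with mean ratios from -0.30 to 0.08, and 8 of 8 leukocyte and endothelial markers, from -0.15 to 0.18, so the filter did not separate markers of this cell type from those of others.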

How the data were processed

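RNA of cl-sh3 and of the control clone was hybridized in a dye swap on 2 arrays. Per array, the authors deposited the scanned intensity of 45015 spots, not normalized, with local backgrounds, flags and a log10 ratio (Cy5 over Cy3) made by the scanner software. A further deposited table holds log10 ratios that differed from the software's by at most 0.00245 and 0.005. The file headers name Feature Extraction 10.5.1.1, whereas the submitters' processing notes give 8.5.1.1. The normalization behind the paper's values was not given in the sources used here.

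Median intensities were corrected for background by normexp (offset 50, limma 3.58.1, R 4.3.3) and normalized by loess within each array. Control spots and spots with outlier flags (153 and 144) were left out, repeated spots were averaged per probe, and the sign was set so that a log2 ratio above 0 means more signal in cl-sh3. A probe was kept when 1 of the RNAs was well above background, by the software's flag on at least 50% of its spots, in both hybridizations. Of the spots, 77.3% to 93.9% per channel carried the flag, and 0 were saturated. The number of arrays limits the precision. A gene's brightest probe stood for it. Symbols came from a RefSeq table of GRCh38.p14, which held 18023 of 19228 RefSeq accessions, and the brightest RUNX2 probe was named through its accession in the study's supplementary gene list. No test was made. Scripts were tested on simulated data.

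The members, the role groups and the further lists were chosen with earlier results of these data known. All members have their values given. Named from the further lists are genes past 1.5-fold in both hybridizations, beside CDKN1B, E2F5, RNASEH2B and PRIM2, chosen after their values were seen. Alternatives were other background corrections, centring, detection filters and probe rules, the deposited ratios, and each hybridization alone. No columns were left out.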

Additional observations from a re-analysis of the deposited data

How the results depend on the processing

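The 4 members at least 1.5-fold higher in both hybridizations, MCM2, MCM4, MCM5 and RPA3, kept that call under all 12 alternatives. Several of these could not change it. Each of these genes has 1 probe, detection filters and scaling of intensities between arrays left their ratios unchanged, and either hybridization alone had already passed. The software's ratios and the deposited table were nearly the same numbers. The members' median stayed 0.23 to 0.36 above that of all genes. Of 695 member ratios under an alternative, 678 kept the sign of the reported value, and 12 members had 1 or more with the other sign. With median centring in place of loess the medians were 0.29 for origin licensing, 0.46 for nucleotide supply and 0.23 for the further replication genes. With both RNAs required above background the polymerase median was 0.26. With the scanner software's log ratio, 9 members were at least 1.5-fold higher in both, and the medians were 0.28 for licensing, 0.34 for polymerases and -0.17 for the further G1/S regulators. The deposited table gave 9, 0.28, 0.34 and -0.18. With a gene's probes averaged, 1 member, ORC5, was at least 1.5-fold lower in both.

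Hybridization 1 alone had 14 members lower, 2 of them at least 1.5-fold, and medians of 0.24 for the members, 0.11 for licensing, 0.30 for the clamp and its loader, 0.24 for nucleotide supply and 0.091 for the further replication genes. The medians of the G1/S regulators, at -0.11, and of the mitosis genes, at -0.07, reversed. Hybridization 2 alone had 16 members higher by 1.5-fold or more, 2 of which passed 2-fold, and medians of 0.15 for licensing, 0.25 for polymerases and 0.55 for the RPA, FEN1 and LIG1 group. The cause of these changes was not tested. No paired analysis was possible because the hybridizations form 1 group and each already holds both RNAs. Only technical error can be seen from 1 RNA pair, and small ratios such as those of RRM1 have no direction.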
